A study of Mus musculus with 8 samples.

Results

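RNA recovered with a control IgG antibody was compared with input RNA, which shows the background of an RNA immunoprecipitation from mouse brain tissue. The comparison used 5 of the 8 samples of the series, the 3 IgG RIP libraries and the 2 Input libraries, and all genes that passed 1 count filter, 22342 of the 55401 genes in the table. The study looked for RNAs bound by CaMKIIβ, a calcium- and calmodulin-dependent protein kinase of neurons, by RNA immunoprecipitation and sequencing (RIP-seq). In that assay an antibody draws a protein, with the RNA attached to it, out of a tissue lysate. All groups came from C57BL/6 mice, from tissue labelled hippocampus, with total RNA taken by TRIzol and treated with DNase; the labels name no genotype, treatment, age or sex. IgG RIP was drawn with a control IgG antibody, Input is RNA without immunoprecipitation, and the remaining 3 libraries, CaMKIIβ RIP, were drawn with an antibody against CaMKIIβ. No label ties a library to an animal, so every p-value measures the spread between these samples, which may be technical.

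Some RNA is recovered in every immunoprecipitation without the targeted protein, since RNA and RNA-protein particles can stay with antibody, beads and plastic. A control IgG library is made to measure that RNA. Such a library gives each RNA's share of what was recovered; it does not give how much RNA was recovered in all. Levels below are CPM, each gene's counts over a library's scaled total, with totals scaled by TMM, a method that sets the bulk of the genes to equal levels between libraries, and folds are log2 of IgG RIP over Input.

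The libraries held 22061623 to 28138289 counts in IgG RIP and 17776157 and 21359418 in Input. Libraries of 1 group were close to each other, with Spearman correlations across genes of 0.988 to 0.992 within IgG RIP and 0.994 between the Input pair, against 0.908 to 0.941 between the groups. IgG RIP 3 stood apart in ribosomal RNA, since Rn18s-rs5, a copy of the 18S ribosomal RNA, took 0.332% of its counts, against 0.0235% and 0.0531% in the other IgG RIP libraries and 0.0332% and 0.0570% in Input. The tissue label was checked against markers: Input held 1595 and 1496 CPM of Fat2 and 414 and 416 CPM of Gabra6, both genes of cerebellar granule cells, beside 2.36 and 2.65 CPM of Spink8, a marker of hippocampal CA1 pyramidal cells. The 20 hippocampal and telencephalic markers summed to 1015 and 1029 CPM in Input and the 14 cerebellar granule cell markers to 5207 and 5352, and none of either list was at 0 in all 5 libraries. Fat2, Gabra6 and Spink8 are single members of these lists and need not stand for them. The hippocampal list also holds Calb1, which the Purkinje cell list holds too. In bulk libraries, fewer cells of a type and less RNA per cell cannot be told apart.

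The IgG control was not a uniform sample of the input: 4483 genes were higher and 4170 lower in IgG RIP than in Input at an adjusted p under 0.05 (edgeR's quasi-likelihood test with Benjamini-Hochberg adjustment), 38.7% of the genes tested, 20.1% upward and 18.7% downward. The median change was 0.59 among the higher genes and -0.79 among the lower ones, and 620 genes rose and 1451 fell by 2-fold or more. All IgG RIP libraries lay above both Input libraries in 29.5% of genes and below both in 30.8%. Without Input 2, 2509 genes were lower and 3150 higher, and with all 8 libraries in 1 fit 1653 were lower and 2023 higher. With library totals alone in place of TMM, the median of all genes moved from -0.02 to -0.25 and the calls from 51.8% upward to 29.96% upward (2714 higher, 6345 lower); all directions are therefore relative to the bulk of the genes. Levels near the middle of that bulk are shown by Ywhaz, a 14-3-3 adaptor protein, at 632, 638 and 596 CPM in IgG RIP and 620 and 624 in Input, and by Alms1, a centrosomal protein gene, at 171, 168 and 159 CPM in IgG RIP and 164 and 168 in Input; under library totals alone these became -0.23 and -0.23.

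Messenger RNA of nuclear genes took a larger part of the IgG RIP libraries and mitochondrial and long noncoding RNA a smaller part. Protein-coding genes held 93.1%, 93.0% and 92.9% of counts in the 3 IgG RIP libraries and 89.1% and 88.7% in Input. Mitochondrially encoded genes held 0.756%, 0.858% and 0.761% in IgG RIP and 1.92% and 2.08% in Input. Each IgG RIP library lay outside the range of the Input pair in both classes. Long noncoding RNA held 1.70%, 1.71% and 1.58% in IgG RIP and 3.41% and 3.57% in Input, and Malat1 alone made up 0.836%, 0.823% and 0.766% against 2.29% and 2.44%. Genes that could not be given a symbol held 3.51% to 3.68% against 4.84% and 4.83%. With 3 against 2 libraries the two-sided exact permutation test has 10 splits and cannot go below p = 0.2, the value it gave for each of these 5 shares.

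Beside the 20.1% higher and 18.7% lower of all genes tested, 4114 of 14381 protein-coding genes were higher and 2964 lower, with a median of 0.08. Of 1322 long noncoding RNA genes, 55 were higher and 159 lower, with a median of -0.22. Of 26 mitochondrially encoded genes, 0 were higher and 20 lower, with a median of -1.95. Small nucleolar RNA genes had 2 higher and 17 lower of 127, and small nuclear RNA genes 1 higher and 11 lower of 93. Unnamed genes had 269 higher and 931 lower of 5350. The lower shares of the long noncoding (12.03%), small nucleolar (13.4%), small nuclear (11.8%) and unnamed (17.4%) genes were all under that of all genes.

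Genes are ranked here among those with an average level, over IgG RIP and Input together, of at least 5 in log2 CPM, which is 32 CPM. Vwf, Lamb2 and Dchs1 of the 11 largest rises, and Zfp950, Srsf7, Rplp1 and Scoc of the 12 largest falls, lay under that level in the group where they were low. The largest rise was in Vwf (chr6:125546774-125686679, plus strand), von Willebrand factor, a clotting protein made by endothelial cells, which stood at 114, 126 and 130.2 CPM in IgG RIP and 27.7 and 25.8 in Input; it rose by 2.20 ± 0.09 (SE, adjusted p = 4.33e-11). Hspg2 (chr4:137468769-137570630, plus strand), perlecan of basement membranes, stood at 159.8, 179 and 176 CPM in IgG RIP and 38.96 and 39.4 in Input and rose by 2.13 ± 0.08 (SE, adjusted p = 1.88e-11). Lrp1 (chr10:127538161-127621148, minus strand), a large endocytic receptor of the LDL receptor family, stood at 3433, 3540.4 and 3895 CPM in IgG RIP and 964 and 912 in Input and rose by 1.95 ± 0.07 (SE, adjusted p = 9.95e-12). In each of these genes every IgG RIP library was more than 3 times as high as either Input library. Dync1h1 (chr12:110601452-110666945, plus strand), the heavy chain of cytoplasmic dynein, stood at 3808, 3655 and 4088 CPM in IgG RIP and 1046 and 994 in Input, a rise of 1.92 ± 0.06 (SE, adjusted p = 9.95e-12). Tjp1, the tight junction scaffold ZO-1, stood at 511, 482 and 512 CPM in IgG RIP and 137 and 127 in Input, a rise of 1.93 ± 0.07 (SE, adjusted p = 9.95e-12). Fasn, fatty acid synthase, stood at 969, 1009 and 1087 CPM in IgG RIP and 285 and 289.8 in Input, a rise of 1.83 ± 0.07 (SE, adjusted p = 1.52e-11).

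Of the remaining 5 of the 11 largest rises, Lamb2, a laminin chain, rose by 1.87 ± 0.08, Fn1, fibronectin, by 1.82 ± 0.08, and Dchs1, a giant cadherin, by 1.79 ± 0.08. Notch1, a cell-surface receptor, rose by 1.78 ± 0.09. Mbp, myelin basic protein, stood at 6093, 5707 and 6336 CPM in IgG RIP and 1791 and 1701 in Input, a rise of 1.79 ± 0.06 (SE, adjusted p = 9.95e-12). Of the 11 genes, 10 had 20 or more exon blocks (intervals left after merging a gene's exons), from 20 in Dchs1 to 101 in Hspg2, and Mbp had 13. The plot of library values for the 11 largest rises and 12 largest falls shows no overlap between the groups, which the naming rule required.

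**Figure D1:**
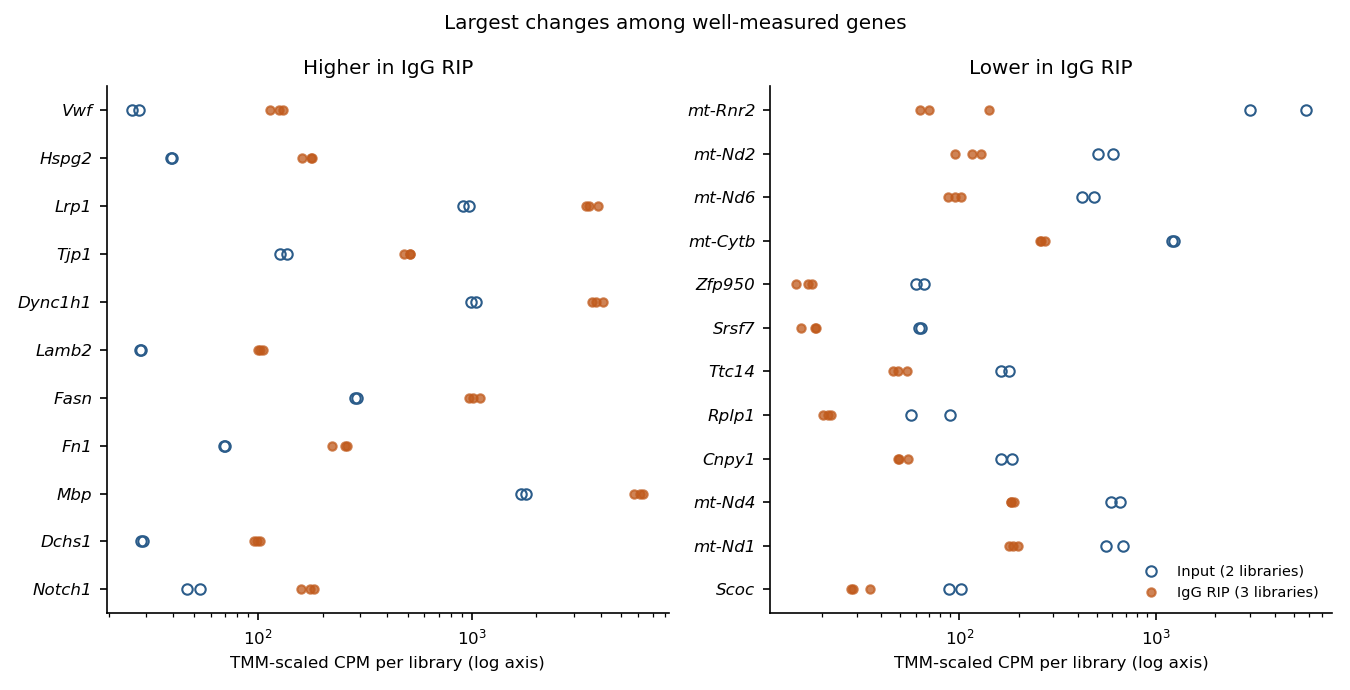
TMM-scaled CPM (log axis) of the 11 genes with the largest rise (left) and the 12 with the largest fall (right) in IgG RIP, with 1 point per library: open circles are the 2 Input libraries, filled points the 3 IgG RIP libraries. Replicates of a group sit close together except in mt-Rnr2 and Rplp1; the Input libraries of mt-Rnr2 were at 3011 and 5811 CPM.

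Of the 12 largest falls, 6 were mitochondrial RNAs. The farthest was mt-Rnr2, the large mitochondrial ribosomal RNA, at 70.4, 63.2 and 141 CPM in IgG RIP and 3011 and 5811 in Input; it fell by 5.58 ± 0.63 (SE, adjusted p = 0.00863), and without Input 2 the change was -5.04 with an adjusted p of 0.0529. Input 2 held nearly 2 times the level of Input 1, so the size of this fall is poorly fixed. mt-Cytb, cytochrome b of complex III, stood at 257, 259.9 and 272 CPM in IgG RIP and 1208 and 1229 in Input and fell by 2.21 ± 0.06 (SE, adjusted p = 5.77e-13). mt-Nd2, a complex I subunit, stood at 129, 94.6 and 116 CPM in IgG RIP and 604 and 505 in Input and fell by 2.29 ± 0.10 (SE, adjusted p = 8.18e-11). Further complex I subunits were mt-Nd6, which fell by 2.25 ± 0.08, mt-Nd4 by 1.75 ± 0.06 and mt-Nd1 by 1.72 ± 0.08. With all 8 libraries in 1 fit the 4 complex I calls were lost at much the same folds, with SEs of 0.74 to 1.43 and adjusted p-values of 0.15 for mt-Nd2, 0.443 for mt-Nd6, 0.197 for mt-Nd4 and 0.272 for mt-Nd1. That fit takes its spread from the CaMKIIβ RIP libraries too, while the IgG RIP and Input counts are the same.

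The other 6 were nuclear genes of mixed function. Srsf7, a serine-arginine-rich splicing factor, stood at 15.7, 18.7 and 18.5 CPM in IgG RIP and 62.3 and 63.7 in Input and fell by 1.84 ± 0.10 (SE, adjusted p = 1.19e-09). Ttc14, a tetratricopeptide repeat gene, stood at 48.7, 53.97 and 45.9 CPM in IgG RIP and 162 and 179 in Input and fell by 1.78 ± 0.08 (SE, adjusted p = 1.12e-10). Rplp1, a stalk protein of the large ribosomal subunit, stood at 20.2, 21.6 and 22.1 CPM in IgG RIP and 56.5 and 89.8 in Input and fell by 1.78 ± 0.14 (SE, adjusted p = 5.15e-08). The Input libraries of Rplp1 lay well apart, and still both were above every IgG RIP library. Zfp950, a zinc finger gene, fell by 1.94 ± 0.11, Cnpy1 by 1.77 ± 0.08 and Scoc, a short coiled-coil protein, by 1.63 ± 0.10. None of the 12 falls had more than 10 exon blocks.

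All 12 mitochondrial mRNAs tested were lower in IgG RIP, but by very unequal amounts; with all 8 libraries in 1 fit 2 of the 12 were called. mt-Cox1, the catalytic subunit of cytochrome c oxidase, stood at 6695, 7652 and 6674 CPM in IgG RIP and 9712 and 8582 in Input, a fall of 0.38 ± 0.07 (SE, adjusted p = 0.000214). mt-Cox3, another subunit of the same enzyme, stood at 1.86, 1.91 and 1.16 CPM in IgG RIP and 7.13 and 9.43 in Input, a fall of 2.34 ± 0.27 (SE, adjusted p = 2.86e-06). The median of the mRNAs was -1.98, beside -0.02 for all genes tested, and mt-Cox1 had the smallest change of the 12. Of 14 mitochondrial ribosomal and transfer RNAs tested, 8 were lower, which became 4 without Input 1 and 3 without Input 2 or with all 8 libraries. mt-Trnc, the transfer RNA for cysteine, stood at 11.6, 6.32 and 9.14 CPM in IgG RIP and 63.3 and 55.5 in Input and fell by 2.72 ± 0.16 (SE, adjusted p = 2.26e-09). mt-Rnr1, the small mitochondrial ribosomal RNA, lay above both Input libraries in IgG RIP 2 and IgG RIP 3. It stood at 10.7, 36.6 and 182 CPM in IgG RIP and 8.1 and 17.8 in Input. Its change of 2.55 ± 1.66 (SE, adjusted p = 0.347) did not pass the test. IgG RIP 3 held most mt-Rnr1, the same library that held most Rn18s-rs5.

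Long noncoding RNAs known from the nucleus of neurons, in a list that also holds a few others, were mostly lower. Of 20 tested, 14 were lower and 2 higher, with a median of -0.51. Malat1 (chr19:5795690-5802672, minus strand), an abundant RNA of nuclear speckles, stood at 8849, 8684 and 8303 CPM in IgG RIP and 20905 and 22287 in Input and fell by 1.33 ± 0.05 (SE, adjusted p = 3.23e-11). The 2 higher members were Norad, a cytoplasmic RNA that binds Pumilio proteins, at 1483, 1728 and 1421 CPM in IgG RIP and 992 and 971 in Input, a rise of 0.65 ± 0.07 (SE, adjusted p = 2.26e-06), and Peg13, an imprinted RNA of brain, at 424, 399.5 and 465 CPM in IgG RIP and 302 and 291 in Input, a rise of 0.53 ± 0.07 (SE, adjusted p = 8.92e-06). In the fit of all 8 libraries 9 were lower and 1 higher, and Norad was not called (0.60, adjusted p = 0.214). Both are single-exon genes, of 4915 and 4725 bases. No IgG RIP library overlapped Input in these 3 genes.

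Among all long noncoding RNA genes with an average log2 CPM of 3 or more, 22 were higher and 46 lower. The number tested at that level is not given here, so these counts cannot be read as shares. Of the 1322 long noncoding RNA genes tested at any level, 55 were higher and 159 (12.03%) lower. Of all genes tested, 20.1% were higher and 18.7% lower. The largest fall was in A330076H08Rik at 18.3, 20.8 and 14.2 CPM in IgG RIP and 54.96 and 57.6 in Input, a change of -1.67 ± 0.13 (SE, adjusted p = 3.09e-08). Chaserr, which lies beside the chromatin remodeller Chd2, fell by 1.38 ± 0.12, and E430024I08Rik and A230056P14Rik fell by 1.35 ± 0.21 and 1.18 ± 0.17. The largest rises were Gm15816 at 15.6, 15.4 and 19.9 CPM in IgG RIP and 7.74 and 6.75 in Input, a change of 1.23 ± 0.17 (SE, adjusted p = 1.62e-05), and A330074K22Rik, which rose by 1.19 ± 0.14; neither was called with all 8 libraries (adjusted p = 0.0586 and 0.084). Lrp8os2 rose by 0.96 ± 0.16. Its reads cannot be told from those of its sense partner Lrp8 here, since the sources used do not say whether strand was used in counting. Lrp8 itself stood at 188, 194 and 194 CPM in IgG RIP and 161 and 159 in Input, a change of 0.26 ± 0.06 (SE, adjusted p = 0.00279) that came to 0.25 with an adjusted p of 0.0507 without Input 2 and 0.03 with library totals alone, and was not called with all 8 libraries (adjusted p = 0.201).

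Host genes of small nucleolar RNAs, whose spliced RNA is often noncoding, were lower in 10 of 15 and higher in 0, with a median of -1.01. That count rests on the Input libraries, with 2 lower without Input 2, and 1 was lower in the fit of all 8 libraries. Snhg14, the very long host of the Snord116 cluster, stood at 331, 359.8 and 299 CPM in IgG RIP and 381 and 424 in Input, a change of -0.29 ± 0.08 (SE, adjusted p = 0.0054), which became -0.21 with an adjusted p of 0.128 without Input 2 and -0.34 with an adjusted p of 0.229 with all 8 libraries. Of 20 small nucleolar and Cajal body RNAs tested from a list of 132, 5 were lower and 1 higher; 2 were lower without IgG RIP 1 or without Input 1, none without Input 2 or with all 8 libraries, and 8 under library totals alone. None of 9 spliceosomal small nuclear RNA genes in the list passed the count filter.

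RNAs made by RNA polymerase III did not move as 1 group, with 1 higher and 3 lower of 4 tested. Rn7sk, which holds the elongation factor P-TEFb inactive in the nucleus, stood at 6419, 5586 and 7508 CPM in IgG RIP and 3880.0 and 4353 in Input and rose by 0.66 ± 0.09 (SE, adjusted p = 1.87e-05). Bc1, a dendritic RNA of neurons, stood at 2.65, 3.16 and 3.31 CPM in IgG RIP and 14.97 and 9.26 in Input and fell by 1.99 ± 0.23 (SE, adjusted p = 2.64e-06). Rn7s2, a copy of the RNA of the signal recognition particle, stood at 2.04, 3.73 and 3.93 CPM in IgG RIP and 11.4 and 10.8 in Input and fell by 1.77 ± 0.24 (SE, adjusted p = 1.53e-05). With all 8 libraries in 1 fit neither Rn7sk (0.61, adjusted p = 0.185) nor Bc1 (-2.05, adjusted p = 0.163) was called. The groups did not overlap in any of these RNAs. These are short RNAs of 168 to 331 bases, and copies of such genes elsewhere in the genome make their counts uncertain.

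Genes that consist of 1 exon block inside an intron of a protein-coding gene on the same strand were mostly below their hosts. They numbered 1939 entries other than protein-coding genes, of which 51 (2.63%) were higher and 417 (21.5%) lower, with a median of -0.38. Of all genes tested, 20.1% were higher and 18.7% lower. The medians of the intron genes by IgG RIP library were -0.32, -0.26 and -0.42. Their 1203 hosts had a median of 0.05, with 438 higher and 348 lower. In 73.1% of the 1938 pairs with a tested host the intron gene was below its host, by a median of 0.47 on the log2 scale. Other single-block unnamed, long noncoding and pseudogene entries, 2132 in number, had a median of -0.27, with 84 (3.94%) higher and 279 (13.1%) lower.

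Among protein-coding genes with more than 10 exon blocks, classes with more blocks had higher medians. Genes with over 40 blocks had a median of 0.56, with 231 higher and 32 lower of 363. Genes with 21 to 40 blocks had a median of 0.27, genes with 11 to 20 blocks 0.10, and genes with 6 to 10 blocks -0.02. Single-block genes departed from that order, at 0.17. In the over-40 class the medians by IgG RIP library were 0.56, 0.53 and 0.60, so the step from the 6 to 10 class was far above the spread between IgG RIP libraries. Each of these medians is against the same mean Input, so that spread leaves out differences between the Input libraries. Genes with over 20 blocks held 36.2%, 36.0% and 36.3% of counts in IgG RIP and 29.7% and 29.2% in Input. The median of the over-40 class exceeded that of genes with 1 to 5 blocks by 0.53, and by 0.31 once a trend with exon length had been removed.

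Exon length alone showed less. Over all genes the median went from -0.26 under 500 bases to 0.13 at 8000 bases and over, and with genes under an average log2 CPM of 1 left out from 0.01 to 0.13; the gap between these end classes was 0.38, and 0.67 without a count filter. Within protein-coding genes of 8000 bases or more, those with 6 to 10 blocks had a median of -0.08 (318 genes) and those with over 40 blocks 0.56 (316 genes). The grid of length by number of blocks shows this in its rows. Across genes, which are not independent replicates, Spearman's rho with the change was 0.156 for exon blocks and 0.093 for exon length over 14381 protein-coding genes. At an average log2 CPM of 5 or more, over 5855 genes, these were 0.181 and 0.028.

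**Figure D2:**
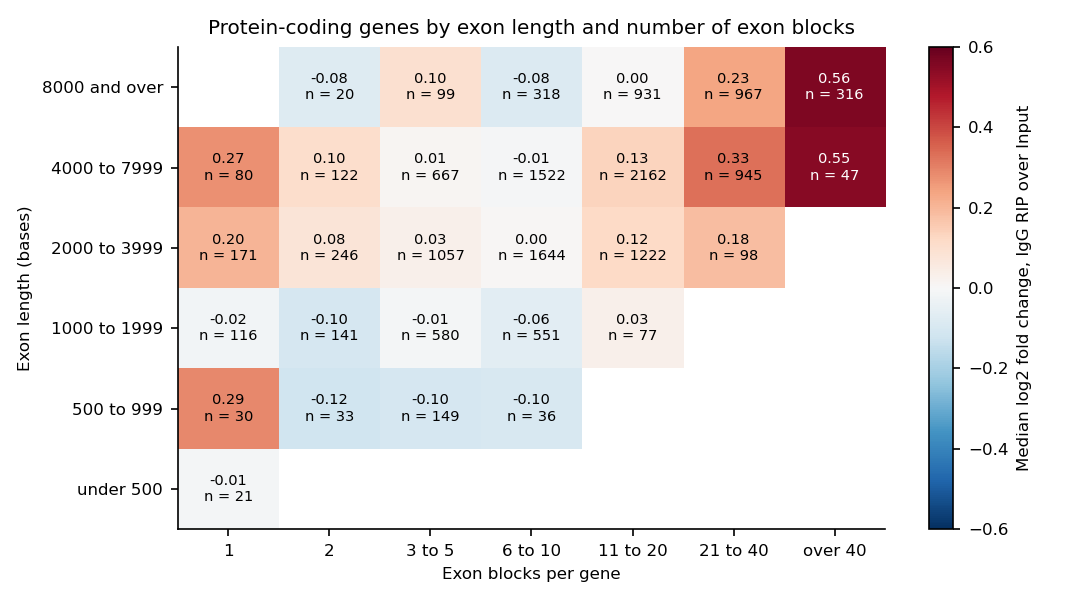
Median log2 fold change of IgG RIP over Input (colour and upper number) for protein-coding genes by exon length (rows, bases) and number of exon blocks (columns), with the number of genes; cells with under 20 genes are blank. The right-hand columns are the highest, at 0.55 and 0.56 for over 40 blocks in both upper rows, while genes of 8000 bases and over with 6 to 10 blocks lie at -0.08.

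Level and structure went together but were not the same. Protein-coding genes with an average log2 CPM of 9 or more had a median of 0.58, with 179 higher and 13 lower of 216. Genes at 7 to 9 had a median of 0.34, at 5 to 7 of 0.13 and at 3 to 5 of -0.04. At 1 to 3 and under 1 the medians were both 0.01. Within the top level class, genes with over 20 blocks had a median of 0.78 (102 higher and 2 lower of 115) and genes with 1 to 20 blocks 0.46 (77 higher and 11 lower of 101). The average level holds the IgG RIP values, so a rise lifts a gene's own class, and a class by Input level leans the other way. By Input level alone, a grouping added after the data were seen, the median was 0.45 at a log2 CPM of 9 or more. It was 0.21 at 7 to 9, 0.09 at 5 to 7 and 0.01 at 3 to 5. Below that it went up again, to 0.06 at 1 to 3 and 0.13 under 1, so the order did not hold at low levels. In the top class by Input level, genes with over 20 blocks had a median of 0.63 (75 genes) and genes with 1 to 20 blocks 0.27 (81 genes).

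Most of the nuclear genes with the highest mean CPM were higher in IgG RIP. Slc1a2, the main glutamate transporter of astrocytes, stood at 6836, 7816 and 6648 CPM in IgG RIP and 2523 and 2500.0 in Input, a rise of 1.5 ± 0.07 (SE, adjusted p = 1.26e-10). Itpr1, the inositol trisphosphate receptor that is abundant in Purkinje cells, stood at 6381, 6155 and 6736 CPM in IgG RIP and 2479 and 2538 in Input, a rise of 1.36 ± 0.06 (SE, adjusted p = 7.87e-11). Kif1a, an axonal kinesin, stood at 3648, 3436 and 3882 CPM in IgG RIP and 1169 and 1113 in Input, a rise of 1.68 ± 0.06 (SE, adjusted p = 2.45e-11). Syne1, the giant nuclear envelope spectrin-repeat protein with 147 exon blocks, rose by only 0.59 ± 0.06, and Adcy1, a calcium-stimulated adenylyl cyclase, by 0.52 ± 0.05. The 10 genes with most counts made up 5.49% to 5.53% of IgG RIP libraries and 6.01% and 6.36% of Input.

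Lists of genes by function are given by counts and medians beside 20.1% higher, 18.7% lower and a median of -0.02 for all genes tested. All protein-coding genes tested had 28.6% higher, 20.6% lower and a median of 0.08. Those at an average log2 CPM of at least 5 had 48.6% higher, 23.5% lower and a median of 0.19. The higher shares of immediate early (44.4%), sodium and calcium channel (47.1%) and hippocampal marker (45%) genes lay under that 48.6%. Sterol and fatty acid synthesis genes, at 53.6%, lay slightly above it. With all 8 libraries in 1 fit, most lists had fewer calls, as all genes did. Lists of large cytoskeletal and membrane proteins stood at the upper end. Of 25 spectrin, ankyrin, plakin and dynein genes, 23 were higher and 1 lower, with a median of 1.06. Flnc, filamin C of muscle, was the highest at 18.9, 20.2 and 21.5 CPM in IgG RIP and 3.999 and 4.57 in Input, a rise of 2.23 ± 0.16 (SE, adjusted p = 1.67e-08). Dmd, dystrophin, was the lower one at 122, 123 and 96.9 CPM in IgG RIP and 146 and 149 in Input, a change of -0.37 ± 0.09 (SE, adjusted p = 0.00316), although it has 84 exon blocks. Dync2h1, the dynein heavy chain of cilia, with 91 blocks, stood at 131, 146 and 125 CPM in IgG RIP and 118 and 124 in Input and did not pass the test. Genes with many exons were thus not all higher.

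Receptors and adhesion proteins of the cell surface were higher nearly throughout. Of 35 notch, plexin, cadherin and teneurin genes, 31 were higher and 0 lower, with a median of 0.87, and Celsr1, a cadherin of planar cell polarity, stood at 24.1, 26.7 and 27.3 CPM in IgG RIP and 7.69 and 7.34 in Input, a rise of 1.79 ± 0.14 (SE, adjusted p = 3.16e-08). Unc5c and Dcc, both netrin receptors, were among the 4 not called, at 199, 225 and 206 CPM in IgG RIP and 204 and 212 in Input and at 44.7, 47.7 and 43.7 CPM in IgG RIP and 40.7 and 43.8 in Input. Of 14 LDL receptor family genes, 12 were higher and 0 lower, with a median of 0.84. Lrp4, the agrin receptor, stood at 132, 119 and 147 CPM in IgG RIP and 41.5 and 42.4 in Input, a rise of 1.66 ± 0.09 (SE, adjusted p = 1.15e-09), while Vldlr, the very low density lipoprotein receptor, stood at 191, 211 and 189 CPM in IgG RIP and 208 and 220.2 in Input and was not called. Under library totals alone the medians of these lists were 0.64 and 0.61.

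Of 70 collagen, laminin and basement membrane genes, 42 were higher and 1 lower, with a median of 0.65. The lower one was Col25a1, a transmembrane collagen of neurons, at 26.9, 23.3 and 24.7 CPM in IgG RIP and 33.7 and 32.8 in Input, a change of -0.41 ± 0.11 (SE, adjusted p = 0.00523), which became -0.40 with an adjusted p of 0.0599 without Input 1 and -0.47 with an adjusted p of 0.0888 with all 8 libraries. Under library totals alone 4 were lower. Of 28 genes of sterol and fatty acid synthesis, 15 were higher and 2 lower, with a median of 0.29; under library totals alone 11 were higher and 6 lower, with a median of 0.06, and 4 were lower without IgG RIP 2. The ends of that list were Fasn, above, and Idi1, isopentenyl diphosphate isomerase, at 10.5, 9.81 and 9.52 CPM in IgG RIP and 18.9 and 17.5 in Input, a fall of 0.87 ± 0.14 (SE, adjusted p = 8.17e-05). Acacb, acetyl-CoA carboxylase beta, rose by 1.35 ± 0.15 and Msmo1, a sterol oxidase, fell by 0.44 ± 0.11.

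Most large intracellular regulators were also higher. Of 30 giant ubiquitin ligase and kinase genes, 23 were higher and 3 lower, with a median of 0.71 (5 lower under library totals alone). Mtor, the growth-control kinase, stood at 409, 387 and 433 CPM in IgG RIP and 154 and 155 in Input, a rise of 1.41 ± 0.07 (SE, adjusted p = 2.00e-10), and Ubr4, a ubiquitin ligase, rose by 1.38 ± 0.06. Against that, Vps13a, a lipid transfer protein with 78 exon blocks, stood at 97.9, 97.2 and 79.1 CPM in IgG RIP and 149 and 143 in Input, a fall of 0.68 ± 0.09 (SE, adjusted p = 7.25e-06), and Atr, the kinase of the DNA damage response, fell by 0.60 ± 0.10. Of 30 large chromatin regulators, 26 were higher and 1 lower, with a median of 0.48; under library totals alone 17 were higher and 3 lower. Auts2, a Polycomb-associated activator, rose by 1.32 ± 0.12, while Setd2, a histone methyltransferase, fell by 0.38 ± 0.06.

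Brain mRNAs known from cross-linking studies to be bound by FMRP, the protein lost in fragile X syndrome, were higher in 50 and lower in 2 of 58, with a median of 0.70. Kif1a was the highest, and Ncan, neurocan of the extracellular matrix, stood at 354, 372 and 389 CPM in IgG RIP and 132 and 124 in Input, a rise of 1.54 ± 0.07 (SE, adjusted p = 8.18e-11). The 2 lower members were Ppp3ca, the catalytic subunit of calcineurin, at 582, 584 and 614 CPM in IgG RIP and 784 and 821 in Input, a fall of 0.44 ± 0.06 (SE, adjusted p = 1.25e-05), and Grm5, a metabotropic glutamate receptor, which fell by 0.28 ± 0.07; neither was called with all 8 libraries (adjusted p = 0.0642 and 0.134), and 5 members were lower under library totals alone. Of 17 voltage-gated sodium and calcium channel genes, 8 were higher and 2 lower, with a median of 0.47. Cacna1h, a T-type calcium channel, rose by 0.91 ± 0.08, Cacna1g, another, by 0.76 ± 0.07, and Scn9a, a sodium channel, fell by 0.82 ± 0.15 (adjusted p = 0.0859 with all 8 libraries). Of 18 immediate early genes, 8 were higher and 2 lower, with a median of 0.35; 4 were higher without Input 2 and 5 without Input 1 or IgG RIP 3. Under library totals alone the balance of that list turned to 3 higher and 5 lower, with a median of 0.13, and with all 8 libraries it was 3 higher and 2 lower. Arc, which acts at active synapses, stood at 72.95, 74.2 and 70.9 CPM in IgG RIP and 42.5 and 31.98 in Input, a rise of 0.97 ± 0.11 (SE, adjusted p = 1.60e-06), and Bdnf, the neurotrophin, at 12.9, 13.8 and 9.94 CPM in IgG RIP and 19.5 and 20.7 in Input, a fall of 0.73 ± 0.15 (SE, adjusted p = 0.000889).

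**Figure D3:**
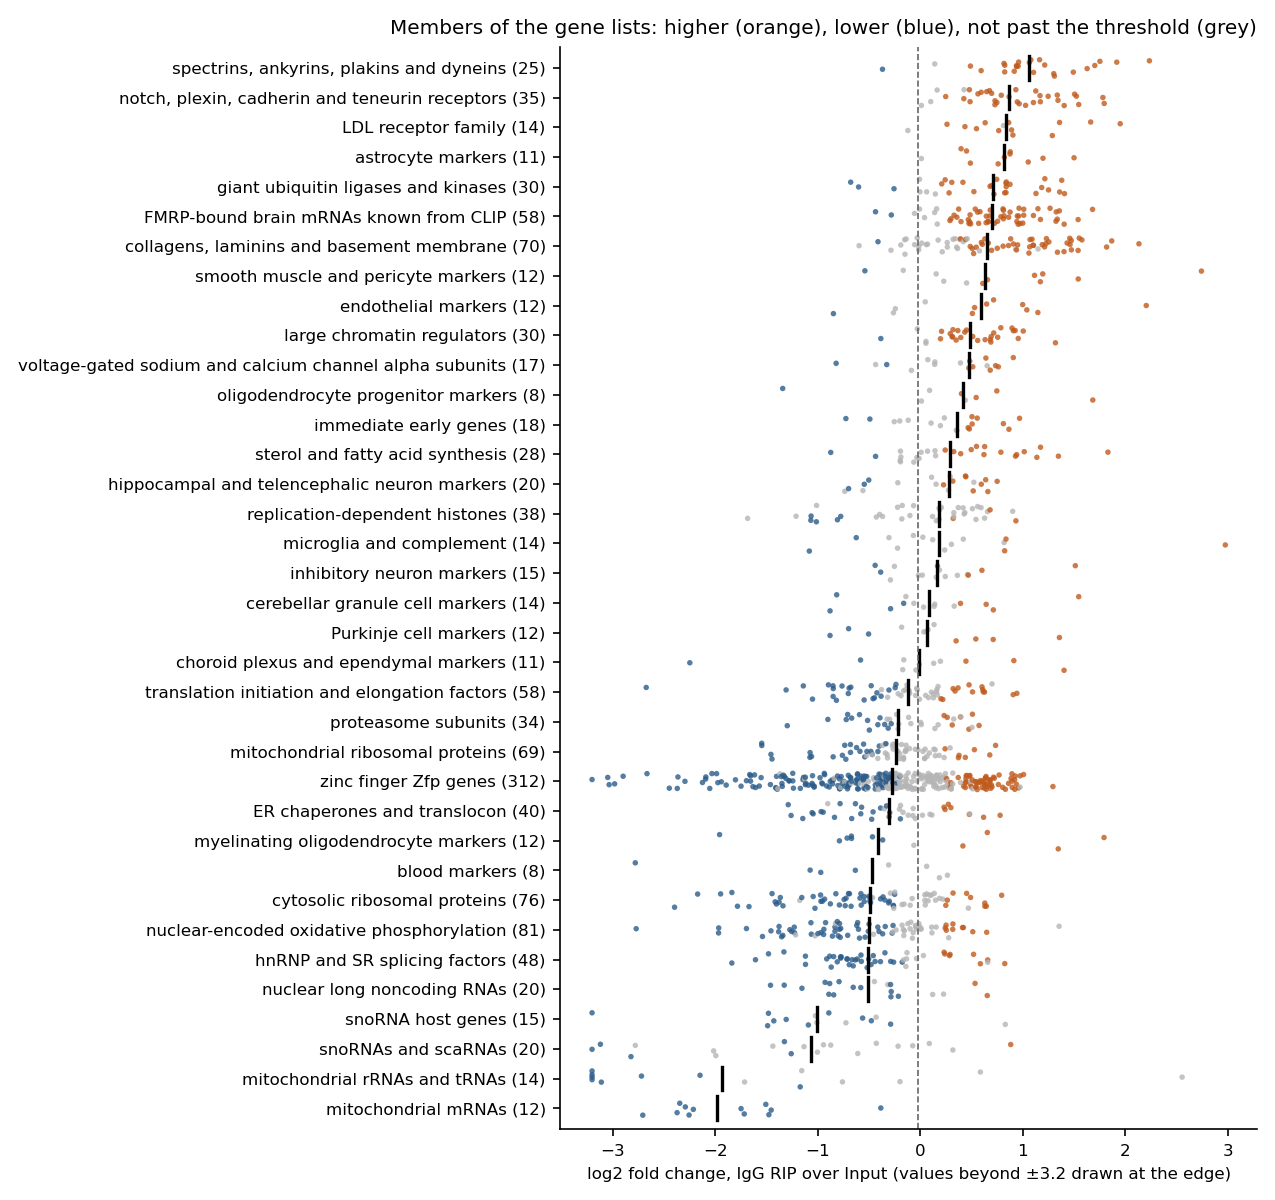
Log2 fold change of IgG RIP over Input for the tested members of each list (1 point per gene, number tested in brackets), orange for higher, blue for lower and grey for not past the threshold; the black bar is the list median and the dashed line the median of all genes tested, -0.02. Medians run from 1.06 for spectrins, ankyrins, plakins and dyneins to -1.98 for mitochondrial mRNAs, and most lists hold points on both sides.

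Genes of several housekeeping complexes lay at the lower end. Of 76 cytosolic ribosomal protein genes, 46 were lower and 9 higher, with a median of -0.49. The mRNAs of this family begin with a run of pyrimidines (C or T) at the start of transcription, by which their translation is regulated. The windows below are shown because they carry that run at the start of members that fell and members that rose; the 4 genes were chosen after their values were seen. Each window holds 10 bases before and 20 bases from the listed start, from RefSeq on GRCm38.p6, 5′ to 3′, with the pyrimidine run in capitals. They lie at chr3:90213629-90213658 (minus strand), chr17:33955646-33955675 (minus strand), chr7:4792955-4792984 (plus strand) and chr19:6057937-6057966 (plus strand).
Rps27: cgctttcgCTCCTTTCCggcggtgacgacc
Rps18: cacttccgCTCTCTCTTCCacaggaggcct
Rpl28: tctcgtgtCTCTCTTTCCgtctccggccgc
Fau: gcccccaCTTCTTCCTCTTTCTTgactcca

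Rps27 and Rps18 of the small subunit had changes of -1.40 ± 0.16 and -1.04 ± 0.16, and Rpl28 of the large subunit and Fau, whose product is cleaved to a ribosomal protein, had changes of 0.63 ± 0.09 and 0.64 ± 0.08. A run of 5 or more C or T that begins with C within 3 bases of a listed start was looked for. It was present at 1 or more starts in 27 of 58 members with a listed start, and at 11.5% of all 32851 listed starts. Some members have more than 1 listed start, so the count of members and the share of starts are not like for like. Starts were listed for 76.3% of the 76 members, so runs were not set against the changes. Fau stood at 70.4, 73.8 and 70.9 CPM in IgG RIP and 47.98 and 43.8 in Input, and Rpl29, another large-subunit protein, at 83.5, 76.4 and 93.2 CPM in IgG RIP and 49.9 and 47.6 in Input, a rise of 0.79 ± 0.09 (SE, adjusted p = 3.02e-06) that was not called with all 8 libraries (adjusted p = 0.113). Rpl39 stood at 3.76, 3.16 and 3.04 CPM in IgG RIP and 9.07 and 25.7 in Input, a fall of 2.40 ± 0.31 (SE, adjusted p = 8.13e-06). The Input libraries of Rpl39 differed more than 2-fold from each other, yet both were above all IgG RIP libraries. Processed pseudogenes of these genes can take or lend reads, so single members are uncertain.

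The other complexes had smaller shares of lower members. Under library totals alone the lists of oxidative phosphorylation, mitochondrial ribosome, proteasome and endoplasmic reticulum genes had 57, 40, 19 and 27 lower members and 3, 2, 3 and 2 higher ones; with all 8 libraries they had 28, 9, 8 and 14 lower and 2, 1, 0 and 2 higher. Of 81 nuclear genes of oxidative phosphorylation, 44 were lower and 9 higher, with a median of -0.50. Ndufb1, a complex I subunit, stood at 1.86, 3.06 and 1.43 CPM in IgG RIP and 8.41 and 20.02 in Input, a fall of 2.77 ± 0.33 (SE, adjusted p = 3.71e-06), and Uqcrc1, a core protein of complex III, at 178, 187 and 198 CPM in IgG RIP and 122 and 118 in Input, a rise of 0.65 ± 0.07 (SE, adjusted p = 1.07e-06). Of 69 mitochondrial ribosomal protein genes, 23 were lower and 7 higher, with a median of -0.24; there were 11 lower and 2 higher without Input 2 and 3 higher without Input 1. Mrps14 fell by 1.54 ± 0.17 and Mrpl12 rose by 0.73 ± 0.12. Of 34 proteasome genes, 13 were lower and 7 higher, with a median of -0.21; there were 8 lower without Input 2, and 4 higher without IgG RIP 1, Input 1 or Input 2. Psma3, a subunit of the core particle, fell by 1.30 ± 0.11, and Psmd8, a subunit of the regulatory particle, rose by 0.57 ± 0.09 (adjusted p = 0.0999 with all 8 libraries).

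Of 58 translation initiation and elongation factor genes, 22 were lower and 13 higher, with a median of -0.12. Under library totals alone 32 were lower and 7 higher, with a median of -0.35, and with all 8 libraries 11 were lower and 6 higher. Eef2, the translocation factor of elongation, stood at 1453, 1482 and 1598 CPM in IgG RIP and 807 and 766 in Input, a rise of 0.94 ± 0.06 (SE, adjusted p = 6.75e-09), and Eef1a2, the neuronal and muscle form of elongation factor 1A, rose by 0.91 ± 0.07. Eif5, which triggers GTP hydrolysis at start codons, stood at 103, 114 and 93.01 CPM in IgG RIP and 223 and 232 in Input, a fall of 1.14 ± 0.08 (SE, adjusted p = 9.51e-09), and Eif3j1 fell by 1.31 ± 0.11. The named factors on either side had groups that did not overlap.

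Of 40 endoplasmic reticulum chaperone and translocon genes, 20 were lower and 7 higher, with a median of -0.30; there were 13 lower and 3 higher without Input 2, and 4 higher without IgG RIP 1 or Input 1. Sec61g, a small subunit of the translocon, stood at 6.64, 7.89 and 7.44 CPM in IgG RIP and 16.4 and 19.4 in Input, a fall of 1.29 ± 0.16 (SE, adjusted p = 4.39e-06). Spcs3, of signal peptidase, fell by 1.26 ± 0.12. Rpn1, of the oligosaccharyltransferase, stood at 133, 130.4 and 147 CPM in IgG RIP and 78.7 and 80.7 in Input, a rise of 0.78 ± 0.07 (SE, adjusted p = 3.71e-07), and Hyou1, a chaperone, rose by 0.62 ± 0.07.

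Most splicing factor genes were lower, and so was a smaller share of zinc finger genes. Of 48 hnRNP and SR splicing factor genes, 33 were lower and 8 higher, with a median of -0.51; 5 were higher without Input 2, 4 under library totals alone and 3, with 20 lower, with all 8 libraries. Srsf6 fell by 1.61 ± 0.10, while Nova2, a splicing regulator of neurons, stood at 207, 206 and 241 CPM in IgG RIP and 126 and 121 in Input, a rise of 0.82 ± 0.08 (SE, adjusted p = 2.68e-07), and Ptbp1, the polypyrimidine tract-binding protein, rose by 0.66 ± 0.11. Of 312 Zfp zinc finger genes, 135 (43.3%) were lower, 61 (19.6%) higher and 116 not called, with a median of -0.28; with all 8 libraries 62 were lower and 33 higher. Zfp994 stood at 2.46, 2.77 and 1.46 CPM in IgG RIP and 11.5 and 11.4 in Input, a fall of 2.37 ± 0.24 (SE, adjusted p = 7.58e-07), and Zfp777 at 84.5, 75.3 and 91.6 CPM in IgG RIP and 35.9 and 32.6 in Input, a rise of 1.29 ± 0.10 (SE, adjusted p = 2.90e-08). Members of this family share sequence, so reads may be split between them. Of 38 replication-dependent histone genes, 5 were lower and 3 higher; their median was 0.18 and turned to -0.04 under library totals alone, with 8 lower and 1 higher. In that list 6 were higher without IgG RIP 2, 3 lower and 1 higher without Input 1, and the calls were lost with all 8 libraries.

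Markers of most cell types held called members in both directions; those of astrocytes had only higher calls and those of blood only lower ones. Of 11 astrocyte markers, 10 were higher and 0 lower, with a median of 0.82. They summed to 12283 to 13572 CPM in IgG RIP and 5826 and 6029 in Input, with Slc1a2 the largest term in every library. Gfap, the intermediate filament of astrocytes, stood at 315, 308 and 335 CPM in IgG RIP and 144 and 135 in Input, a rise of 1.20 ± 0.07 (SE, adjusted p = 1.11e-09). S100b, a calcium-binding protein, stood at 168, 140 and 162 CPM in IgG RIP and 158 and 153 in Input, with a change of 0.01 ± 0.08 (SE, adjusted p = 0.932) that was -0.22 and past the threshold under library totals alone.

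Myelinating oligodendrocyte markers were divided, with 4 higher and 7 lower of 12 and a median of -0.42, while their sum was 6343 and 6408 CPM in Input and 10234 to 10794 in IgG RIP. Mbp and Mobp were the highest. Mobp, a myelin protein, stood at 1775, 1687 and 1675 CPM in IgG RIP and 671 and 677 in Input, a rise of 1.35 ± 0.06 (SE, adjusted p = 8.18e-11). Aspa, aspartoacylase, stood at 4.79, 5.88 and 4.47 CPM in IgG RIP and 19.3 and 19.8 in Input, a fall of 1.96 ± 0.16 (SE, adjusted p = 8.11e-08). mRNAs of 1 cell type thus moved in opposite directions in the same libraries. Of 8 progenitor markers 4 were higher and 1 lower, and Cspg4, the NG2 proteoglycan, rose by 1.68 ± 0.09.

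Vascular markers were mostly higher. Of 12 endothelial markers, 8 were higher and 1 lower (3 lower under library totals alone), with a median of 0.59, and of 12 smooth muscle and pericyte markers, 7 were higher and 1 lower, with a median of 0.63. Myh11, smooth muscle myosin, stood at 38.8, 37.2 and 47.6 CPM in IgG RIP and 4.97 and 7.26 in Input, a rise of 2.74 ± 0.17 (SE, adjusted p = 2.43e-09). Kdr, the VEGF receptor, rose by 1.15 ± 0.10, while Slco1a4, a transporter of brain endothelium, stood at 25, 27.9 and 18.4 CPM in IgG RIP and 40.7 and 44.4 in Input, a fall of 0.85 ± 0.14 (SE, adjusted p = 9.91e-05), and Rgs5, a pericyte marker, fell by 0.54 ± 0.08. Endothelial markers summed to 511 to 546 CPM in IgG RIP and 317 and 319 in Input, and none was at 0 in all libraries.

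Blood markers were lower in 4 of 8 and higher in 0, with a median of -0.47. Hbb-bs, adult beta-globin, stood at 117, 98.1 and 102 CPM in IgG RIP and 225 and 220.5 in Input, a fall of 1.07 ± 0.08 (SE, adjusted p = 1.29e-08). The list summed to 252 to 280 CPM in IgG RIP and 421 and 431 in Input. Choroid plexus and ependymal markers had 3 higher and 2 lower of 11 with a median of -0.01, where Ttr, transthyretin, fell by 0.58 ± 0.07 and Dnah5, a ciliary dynein, rose by 1.40 ± 0.15.

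Microglial and complement genes had 3 higher and 2 lower of 14, with a median of 0.18 that was -0.05 under library totals alone. C3, the central complement component, stood at 18.6, 12.5 and 13.95 CPM in IgG RIP and 1.85 and 1.96 in Input and rose by 2.97 ± 0.23 (SE, adjusted p = 3.36e-08), the largest change of the marker lists. Genes of Fc receptors and other IgG-binding proteins had 1 higher and 0 lower of 10. That one was C1qa, a chain of complement C1q, at 19.4, 18.4 and 21.9 CPM in IgG RIP and 11.1 and 11.2 in Input, a rise of 0.84 ± 0.14 (SE, adjusted p = 0.000118) that was not called with all 8 libraries (adjusted p = 0.0855). Fcgr2b, the inhibitory Fc receptor, stood at 2.14, 1.87 and 2.43 CPM in IgG RIP and 2.204 and 2.09 in Input and Fcgr3 at 5.48, 4.497 and 4.78 CPM in IgG RIP and 3.95 and 3.42 in Input, and neither was called.

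Neuronal markers were mixed in direction. Of 15 inhibitory neuron markers, 4 were higher and 2 lower, with a median of 0.17 (-0.06 under library totals alone). Reln, reelin, which cerebellar granule cells also make, stood at 1647, 1694 and 1710.2 CPM in IgG RIP and 606 and 575 in Input, a rise of 1.51 ± 0.06 (SE, adjusted p = 2.98e-11), and Gad2, a GABA-synthesising enzyme, at 136, 140 and 126 CPM in IgG RIP and 177 and 174 in Input, a fall of 0.39 ± 0.07 (SE, adjusted p = 0.000182). Of 14 cerebellar granule cell markers, 4 were higher and 4 lower, with a median of 0.08 (-0.14); 2 were lower without IgG RIP 1, Input 1 or Input 2, or with all 8 libraries, and 7 under library totals alone. Fat2 stood at 4441, 4399.8 and 4691 CPM in IgG RIP and 1595 and 1496 in Input, a rise of 1.55 ± 0.06 (SE, adjusted p = 2.45e-11), and Gabra6, a GABA-A receptor subunit, at 229, 235 and 212 CPM in IgG RIP and 414 and 416 in Input, a fall of 0.88 ± 0.06 (SE, adjusted p = 1.25e-08). Of 12 Purkinje cell markers, 4 were higher and 3 lower, with a median of 0.07 (-0.16), and of 20 hippocampal and telencephalic markers 9 were higher and 3 lower, with a median of 0.28 (0.06). In the hippocampal list 4 were higher without Input 2, and 4 higher and 4 lower under library totals alone. Fat2 has 24 exon blocks and Gabra6 9, and Reln 67 and Gad2 16.

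The change also differed by chromosome. The lowest medians of protein-coding genes were on chromosome X at -0.19, with 81 higher and 165 lower of 494, chromosome 13 at -0.13 and chromosome 3 at -0.10. The highest were on chromosomes 7 and 11, both at 0.19, chromosome 15 at 0.18 and chromosome 19 at 0.17. On chromosome 11, 401 genes were higher and 173 lower of 1180. The 3 IgG RIP libraries gave chromosome X medians of -0.17, -0.15 and -0.23 and chromosome 7 medians of 0.15, 0.16 and 0.20, so the gap was wider than the spread between IgG RIP libraries. Each of these medians is against the same mean Input, so that spread leaves out differences between the Input libraries. Median exon length was 4345 bases on chromosome X and 4101 on chromosome 7.

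**Figure D4:**
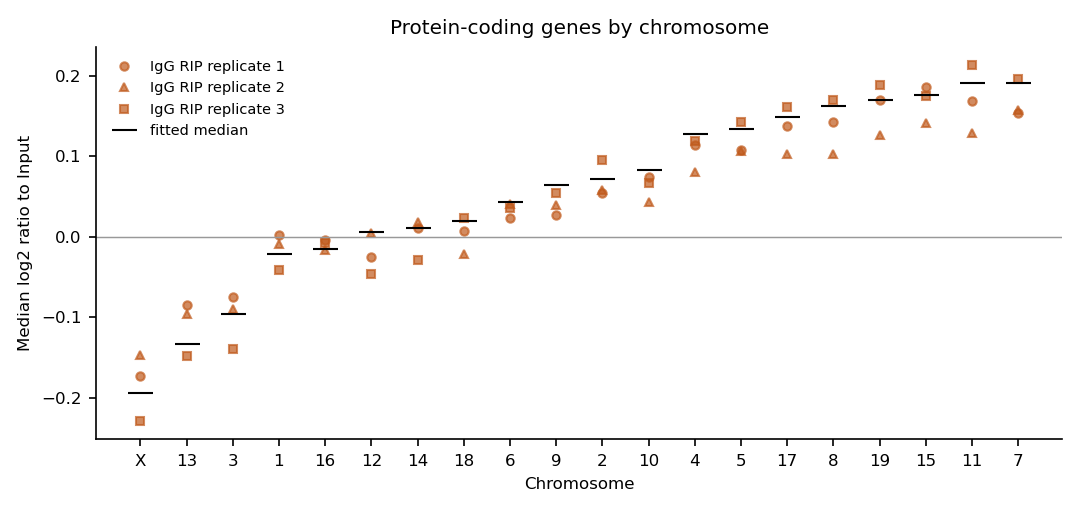
Median log2 ratio of IgG RIP to Input over protein-coding genes of each chromosome, in order of the fitted median (black bars), with 1 symbol per IgG RIP library against the mean of Input. Chromosome X lies lowest, between -0.23 and -0.15 by library, and chromosomes 7 and 11 lie highest.

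CaMKIIβ RIP was compared with the same 2 Input libraries, so the 2 comparisons are not independent and their values are only set side by side. For Vwf the change against Input was 2.20 in IgG RIP and 2.32 in CaMKIIβ RIP, for Lrp1 1.95 and 2.01, and for Tjp1 1.93 and 1.57. For Malat1 it was -1.33 and -1.44, for mt-Cytb -2.21 and -3.08, and for Rplp1 -1.78 and -1.01. The CaMKIIβ RIP change of Rplp1 (SE 0.41, adjusted p = 0.202) was not called, while those of the other genes named here were. In a fit of CaMKIIβ RIP against IgG RIP none of these genes was called, with adjusted p-values of 0.982 to 0.993. The pairs of values thus show no difference between the 2 antibodies that passed the test.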

How the data were processed

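The data are gene-level read counts for 8 RIP-seq libraries of mouse brain tissue. Per the submitters' processing notes, the authors used featureCounts 2.0.1 and STAR 2.7.3a, with cutadapt 2.10 and Trim Galore 0.6.4, and the builds mm10 and GRCm38.p6; the strand setting of the counting is not given in the sources used here. The deposited values are raw, unnormalized counts with exon positions and a length in bases per gene, per the file headers. Columns were mapped to samples by name, and 0 were left unmapped.

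Genes were named through RefSeq GRCm38.p6 by reciprocal overlap of at least 0.5 of the joint span, which named 34132 of 55401 genes and 96.0% of the counts. With edgeR 4.0.16 in R 4.3.3, the 3 IgG RIP and 2 Input libraries were fitted (filterByExpr at its minimum of 10 counts, 15 in total; TMM, robust quasi-likelihood F test, Benjamini-Hochberg adjusted p under 0.05); the SE is the log2 fold change divided by the square root of F. The fold changes of CaMKIIβ RIP come from separate fits of the same kind. Medians by library are of log2(CPM + 0.5) minus that of mean Input. Shares of counts used an exact permutation test (scipy 1.17.1). Counts were simulated for 21600 genes, with 50 genes changed at each fold. On these the edgeR test recovered 58%, 80%, 100% and 98% of 1.5-, 2-, 4- and 8-fold changes and called 12 unchanged genes. In the data 38.7% of the genes tested were called, a far larger part than was changed in the simulation. The simulation therefore does not show recovery or false calls where so many genes differ.

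Gene lists and members were chosen with earlier results of these data known. Named genes are, by rule: the 12 largest changes each way at an average log2 CPM of at least 5 with separated libraries and a symbol other than a Gm number or Rik name; the 10 highest mean CPM in each group; the 2 highest and 2 lowest of each list at an average log2 CPM of at least 1; the 5 largest long noncoding changes each way at 3 or more; and the 5 genes nearest 0 at 6 or more. The text describes 1 or more genes from each part of the rule and leaves out others, some of which are not reported here; Rps27, Rps18, Rpl28 and Rn18s-rs5 fall outside it and were chosen after their values were seen. Alternatives were other scalings (DESeq2 1.42.0 size factors, upper quartile, library totals), filters, DESeq2, limma-voom (limma 3.58.1), all 8 libraries, a replicate block, a test against a 1.5-fold change, removal of an exon length trend and each library left out. Protein features and GC content were not used here, as RefSeq proteins were not used and only 79.7% of protein-coding genes tested matched a promoter.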

Additional observations from a re-analysis of the deposited data

How the results depend on the processing

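The numbers of higher and lower genes stayed within 1.5 times of 4483 and 4170 under the other scalings by RLE and upper quartile, without mitochondrial and structural RNA, under both count filters, DESeq2, limma-voom and with the exon length trend removed. They were 2023 and 1653 with all 8 libraries in the fit, 908 and 1191 against a 1.5-fold change, and 2714 and 6345 with library totals alone. The fit of all 8 libraries takes its spread from CaMKIIβ RIP too, so a call lost there need not mark a weaker difference between IgG RIP and Input. CaMKIIβ RIP 2 had 19247 genes with a count, against 27064 and 24865 in CaMKIIβ RIP 1 and 3. With each library left out the counts ran from 3150 to 4676 higher and from 2509 to 4341 lower, lowest without Input 2. With replicate number as a block 4611 genes were higher and 4320 lower, 4296 and 3877 of them shared with the fit without it. The labels do not say whether equal numbers mark shared samples, and Input has no replicate 3. IgG RIP 3 is therefore alone in its block and adds nothing to the change, which compares IgG RIP 1 and 2 with the Input libraries. Deviations of same-numbered libraries correlated at -0.0194 and 0.0341. The deviations of the 2 Input libraries mirror each other, so these values cannot show whether the samples were paired. Under the block the call of mt-Rnr2 was lost (-5.97, adjusted p = 0.0852), and mt-Rnr1 (0.80, adjusted p = 2.89e-06) and Dync2h1 (0.19, adjusted p = 0.0181) were called. The IgG RIP 3 level of mt-Rnr1, 182 CPM and the highest of the group, did not enter its change under the block.

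The gap between exon length classes (8000 bases and over minus under 500) was 0.38. It was 0.67 without a count filter, 0.48 (0.475) under a stricter one, 0.28 in protein-coding genes and 0.12 at an average log2 CPM of at least 1. With a library left out it was 0.31 to 0.45. For genomic span, over 300 kb minus under 10 kb, the gap was 0.31, while in protein-coding genes alone these classes had medians of 0.20 and 0.09. The gap between over 40 and 1 to 5 exon blocks, added after the data were seen, was 0.31 with the exon length trend removed and 0.53 to 0.59 with a library left out. The rise in the protein-coding share was 4.07 percentage points, 3.14 without mitochondrial and structural RNA and 3.88 to 4.27 with a library left out; the mitochondrial share changed by -1.21, and by -1.29 to -1.13 with a library left out.

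Of 176 named genes 150 were called, and 81 of those kept their call in every setting. Under library totals alone Unc5c (-0.21), S100b (-0.22), Ywhaz (-0.23) and Tm9sf4 (-0.23) changed sign. The Input group has 2 libraries: genes called without Input 1 or Input 2 rest on a lone Input library assumed to vary like IgG RIP. Protein length could not be run as an alternative. The causes of these shifts were not tested.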
